A study of Mus musculus with 24 samples.

Results

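The genes of cholesterol synthesis, of its control by SREBP and of cholesterol export under LXR were followed in mouse fetal brain cells kept at 3% or 21% O2. The list held 35 genes, of which 33 had a probe set annotated to that gene alone, out of 19938 genes so measured on the array. Where a gene had more than 1 probe set, the one with the highest mean over the 24 arrays was used. The measured genes were 17 of 18 synthesis enzymes, 6 of 6 SREBP control genes, 1 of 2 LXR receptors (Nr1h3), 5 of 5 LXR target genes and 4 of 4 fatty acid enzymes. Acat2 and Nr1h2 were not analysed here.

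Cells came from the cortex or the midbrain (mesencephalon) of C57Bl/6 mice at embryonic day 14 and were grown in a medium for expanding cells, for either 48 h or 13 d. Each region and time was cultured at 3% O2, in a gas mixture that also held nitrogen and carbon dioxide, or at 21% O2. These choices gave 8 groups of 3 arrays, and every comparison of oxygen levels set 3 arrays against 3. The submitters describe the cells as neural stem cells, and the labels do not say whether replicate arrays came from separate animals or cultures, so p-values measure the spread between these samples, which may be technical.

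Cells make cholesterol from acetyl-CoA by the mevalonate pathway and then the sterol pathway, and several late steps use molecular oxygen. When sterols are scarce, SCAP carries SREBP proteins from the endoplasmic reticulum to the Golgi, where they are cut and released to switch on synthesis genes; INSIG proteins hold SCAP back when sterols are plentiful. LXR receptors respond to oxysterols and switch on genes of cholesterol export. In the brain, cholesterol is made locally, since lipoproteins of the blood do not cross the blood-brain barrier, and astrocytes supply it to other cells on particles that carry ApoE.

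All values are log2 signals, and a difference is the mean at 3% O2 minus the mean at 21% O2 on that scale. The verbs rose and fell are used of a gene where limma's moderated test gave a Benjamini-Hochberg adjusted p under 0.05 over the 23410 probe sets with a gene symbol. The array medians lay between 7.35 and 7.42, and arrays of one group correlated at 0.986 to 0.999. Of 10 hypoxia genes used as a check of the oxygen labels, 9 were higher at 3% O2 in midbrain at 48 h, 9 in midbrain at 13 d, 6 in cortex labelled 48 h and 9 in cortex labelled 13 d. All 12 cortex arrays correlated better with midbrain arrays of the other labelled time at the same oxygen level, so cortex times are given as labelled and no direction over time is drawn from them. The mean of 10 neuron markers at 21% O2 was 12.24 ± 0.02 (SD, n = 3) in midbrain at 48 h and 8.57 ± 0.07 at 13 d, against 9.61 ± 0.14 in cortex labelled 48 h and 11.68 ± 0.04 in cortex labelled 13 d. The mean of 7 stem and progenitor markers lay between 10.29 and 11.38 over the 8 groups. The 6 midbrain 13 d arrays formed one array run and the other 18 arrays another, so that run and culture time cannot be told apart in midbrain, while each oxygen comparison lies within one run. One array, replicate 1 of cortex labelled 48 h at 21% O2, stood apart from its group, with an astrocyte marker mean of 9.27 against 10.66 and 10.43 in the other two.

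The stretches before the start sites of 4 member genes are shown because they hold the letters searched for: the SRE core with CCAAT boxes in Hmgcs1, CCAAT boxes with the hypoxia core in Hsd17b7 and Insig1, and the hypoxia core alone in Abca1. RefSeq promoter windows of GRCm38.p6, 250 bases before to 50 after the start, were given for 28 of the 35 genes, in 39 windows. The 250 bases before the start follow, 5′ to 3′ along the gene: Hmgcs1 (chr13:119690101-119690350, + strand), Hsd17b7 (chr1:169969206-169969455, - strand), Insig1 (chr5:28071162-28071411, + strand) and Abca1 (chr4:53159896-53160145, - strand). Capitals mark the SRE core (TCACNCCAC), the CCAAT box and the hypoxia core (ACGTG), each searched on both strands; a box of the second kind on the opposite strand reads ATTGG. Where the palindrome CACGTG stands, the hypoxia core lies on both strands, in overlap.
Hmgcs1: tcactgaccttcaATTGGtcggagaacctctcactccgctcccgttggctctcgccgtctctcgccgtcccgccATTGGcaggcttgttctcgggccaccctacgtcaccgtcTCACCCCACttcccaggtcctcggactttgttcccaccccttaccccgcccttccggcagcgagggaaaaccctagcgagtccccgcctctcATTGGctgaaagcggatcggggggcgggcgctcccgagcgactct
Hsd17b7: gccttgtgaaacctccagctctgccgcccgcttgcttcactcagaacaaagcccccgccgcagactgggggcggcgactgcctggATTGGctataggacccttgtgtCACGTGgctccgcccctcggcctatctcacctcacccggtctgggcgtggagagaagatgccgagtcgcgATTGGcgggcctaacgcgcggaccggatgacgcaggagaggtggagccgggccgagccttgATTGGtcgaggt
Insig1: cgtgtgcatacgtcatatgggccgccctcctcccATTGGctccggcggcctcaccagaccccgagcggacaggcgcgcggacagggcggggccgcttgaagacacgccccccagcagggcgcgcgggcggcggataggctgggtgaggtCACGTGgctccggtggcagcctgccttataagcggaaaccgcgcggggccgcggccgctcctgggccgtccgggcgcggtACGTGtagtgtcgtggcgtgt
Abca1: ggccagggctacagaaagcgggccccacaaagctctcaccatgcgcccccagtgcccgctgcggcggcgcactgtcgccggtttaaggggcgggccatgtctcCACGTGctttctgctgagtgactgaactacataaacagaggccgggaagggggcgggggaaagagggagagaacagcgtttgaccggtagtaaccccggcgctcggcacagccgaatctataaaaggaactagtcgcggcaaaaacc
SREBP proteins bind sterol regulatory elements together with partners such as NF-Y, which binds the CCAAT box. The SRE core was found in 1 of the 39 member windows, that of Hmgcs1 at position -137 from the start, and in 1.24% of the 32851 windows of all genes. A CCAAT box was found in 56.4% of member windows and 37.4% of all windows. By gene, 21 of the 28 members had one in a window, as did 41.1% of 27025 genes. The hypoxia core was in 17.9% of member windows and 19.6% of all windows, with Hsd17b7, Insig1 and Abca1 among the 6 genes that had it. The DR4 element of LXR, a direct repeat of the site AGGTCA with a spacing of 4 and up to 1 mismatch in each copy, was in 0 member windows and in 1.75% of all windows. A match describes the letters only, and the absence of one says only that they are not in this window within the mismatches allowed. A looser DR4 repeat, with more than 1 mismatch in a copy, was not searched for. The Abca1 stretch above holds such letters on the opposite strand, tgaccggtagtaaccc, and the Fasn and Srebf1 windows hold similar ones.

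In midbrain cells at 13 d, 17 of the 33 members rose at 3% O2 and 2 fell. This fit did not pair arrays, and with the replicate number as a block 23 members passed. Among all probe sets tested, 23.9% passed in this comparison, 11.2% upward and 12.7% downward. The members that rose were 9 of 17 synthesis enzymes, 5 of 6 SREBP control genes and 3 of 4 fatty acid enzymes, and both that fell were LXR targets that encode export pumps. The median difference was 0.35 over the synthesis enzymes and 0.48 over SREBP control genes, beside -0.01 over all probe sets. It was -0.35 over the 5 genes listed as LXR targets, of which 3 did not pass. Each gene was counted in a single list, Srebf1 under SREBP control and Scd1 and Fasn under fatty acid enzymes. The LXR target values therefore describe those 5 genes only.

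**Figure D1:**
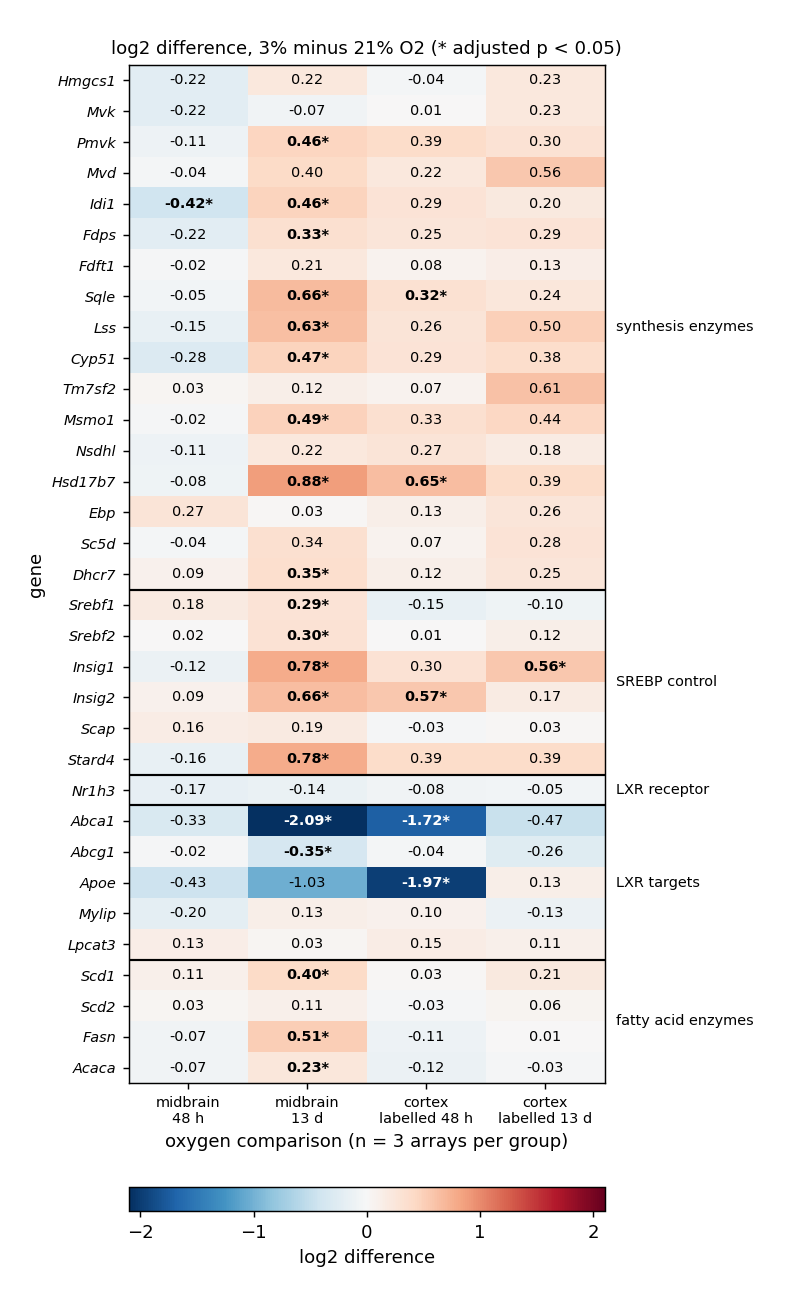
Log2 difference between 3% and 21% O2 for the 33 measured genes (rows, by role) in the 4 oxygen comparisons (columns), from groups of 3 arrays each; red is higher and blue lower at 3% O2, and an asterisk marks an adjusted p under 0.05. The midbrain 13 d column holds 19 of the marked cells, and the most negative cells are those of Abca1 and Apoe.

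Along the synthesis pathway in midbrain at 13 d, the enzymes that rose began with Pmvk, the kinase that makes mevalonate diphosphate, and Idi1, which interconverts the isoprene units. Idi1 read 11.16, 11.03 and 11.22 at 3% O2 and 10.76, 10.51 and 10.76 at 21% O2. The 2 groups did not overlap, and the difference was 0.46 ± 0.10 (SE, adjusted p = 0.00115). A second Idi1 probe set gave 0.46 as well. Pmvk differed by 0.46 ± 0.13 (adjusted p = 0.0114) and Fdps, which makes farnesyl diphosphate, by 0.33 ± 0.08 (adjusted p = 0.0053). The entry enzyme Hmgcs1 read 12.84, 12.58 and 12.85 at 3% O2 against 12.57, 12.47 and 12.57, a difference of 0.22 ± 0.13 that did not pass (adjusted p = 0.274).

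Among the sterol steps, Sqle, the oxygen-using squalene epoxidase, rose from 11.28, 11.14 and 11.3 at 21% O2 to 12.03, 11.72 and 11.95 at 3% O2. Every array at 3% O2 was above every array at 21% O2, with a difference of 0.66 ± 0.08, or 1.58-fold (adjusted p = 6.98e-06). Hsd17b7, a ketosteroid reductase of the C4 demethylation steps, read 10.34, 10.04 and 10.4 at 3% O2 and 9.3, 9.33 and 9.51 at 21% O2. Its groups did not overlap, and at 0.88 ± 0.11 (1.84-fold, adjusted p = 4.88e-06) it had the largest upward difference of the synthesis enzymes here. Lss, which closes the sterol ring, rose by 0.63 ± 0.19 (adjusted p = 0.0172), Msmo1, a methyl sterol oxidase, by 0.49 ± 0.13 (adjusted p = 0.0103) and Cyp51, the lanosterol demethylase, by 0.47 ± 0.12 (adjusted p = 0.00766). Dhcr7, a last-step reductase, rose by 0.35 ± 0.09 (adjusted p = 0.00561). The other 8 synthesis enzymes did not pass, with differences from -0.07 (Mvk) to 0.40 (Mvd); with the replicate number as a block, Fdft1 (0.21, adjusted p = 0.025) and Sc5d (0.34, adjusted p = 0.0289) passed.

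The SREBP control genes moved with them. Insig1, itself a target of SREBP and a brake on SCAP, read 12.42, 12.39 and 12.52 at 3% O2 and 11.6, 11.65 and 11.75 at 21% O2. These groups lay well apart, at 0.78 ± 0.13 (1.71-fold, adjusted p = 0.000111). Insig2, the related brake, read 10.07, 9.93 and 10.12 against 9.31, 9.43 and 9.41 and rose by 0.66 ± 0.10 (adjusted p = 7.29e-05). Stard4, a carrier that moves sterol between membranes, rose by 0.78 ± 0.14 (adjusted p = 0.000239). The 2 SREBP genes rose less: Srebf2, which encodes the form that favours cholesterol genes, by 0.30 ± 0.07 (adjusted p = 0.00178) and Srebf1, whose products favour fatty acid genes, by 0.29 ± 0.10 (adjusted p = 0.0475). The Srebf1 call was lost on leaving out any 1 of the 6 arrays, under quantile normalization (adjusted p = 0.0577) and under median centring (adjusted p = 0.0549). Scap itself differed by 0.19 and did not pass; with the replicate number as a block it did (adjusted p = 0.015).

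On the export side, Abca1, the pump that loads cholesterol onto lipid-poor apolipoproteins, read 8.62, 7.93 and 8.66 at 3% O2 and 10.65, 10.37 and 10.48 at 21% O2. No array of one group came near the other, and Abca1 fell by 2.09 ± 0.24, or 4.27-fold (adjusted p = 2.12e-06). Abcg1, a pump that passes cholesterol to lipoproteins, read 7.69, 7.79 and 7.69 against 8.11, 8.07 and 8.04. Its fall was smaller, at -0.35 ± 0.08 (adjusted p = 0.00326), but the groups did not overlap. Apoe, the main lipoprotein component made in the brain, read 11.67, 10.46 and 11.7 against 12.59, 12.06 and 12.26, also without overlap. Replicate 2 at 3% O2 was the lowest array for Abca1 and for Apoe. The Apoe difference of -1.03 ± 0.49 did not pass (adjusted p = 0.154). That SE is pooled over all 8 groups, whose Apoe SDs ran from 0.03 to 1.59 (cortex labelled 48 h at 21% O2). Apoe passed with the replicate block (adjusted p = 0.0454) and with array weights (-0.73, adjusted p = 0.0199). Mylip, which targets lipoprotein receptors for degradation, and Lpcat3, a phospholipid remodelling enzyme, differed by 0.13 and 0.03 and did not pass. The receptor gene Nr1h3 read 6.85, 6.84 and 6.74 against 6.99, 6.95 and 6.9, a difference of -0.14 ± 0.06 that did not pass (adjusted p = 0.086).

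Of the fatty acid enzymes, Fasn, the fatty acid synthase, read 12.28, 12.21 and 12.32 at 3% O2 and 11.74, 11.76 and 11.78 at 21% O2. The spread within each group was small beside the gap of 0.51 ± 0.05 (1.42-fold, adjusted p = 3.36e-07), which had the smallest p of all members in this comparison. Scd1, a desaturase that needs oxygen, rose by 0.40 ± 0.13 (adjusted p = 0.0317) and Acaca, which makes malonyl-CoA, by 0.23 ± 0.07 (adjusted p = 0.0259). The Scd1 call was lost on leaving out any 1 of the arrays other than replicate 2 at 3% O2. Scd2, the other desaturase, differed by 0.11 and did not pass.

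Markers of other cells moved in this comparison too. The mean of 9 fibroblast and pericyte markers was 8.15 ± 0.22 at 3% O2 against 7.29 ± 0.04 (5 of 9 genes rose), and that of 7 cell cycle genes 11.33 ± 0.08 against 10.97 ± 0.05 (4 of 7 rose). The mean of 8 endothelial markers was 6.91 ± 0.08 against 6.60 ± 0.04 (2 rose). The astrocyte marker mean was 10.34 ± 0.27 against 10.57 ± 0.09 (1 of 10 fell), that of 11 oligodendrocyte markers 9.52 ± 0.26 against 9.81 ± 0.05 (1 rose, 2 fell) and that of 7 stem and progenitor markers 11.06 ± 0.12 against 11.36 ± 0.01 (1 rose, 2 fell). Their part in the member results was not tested, and in bulk samples fewer cells of a type and less RNA per cell cannot be told apart.

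**Figure D2:**
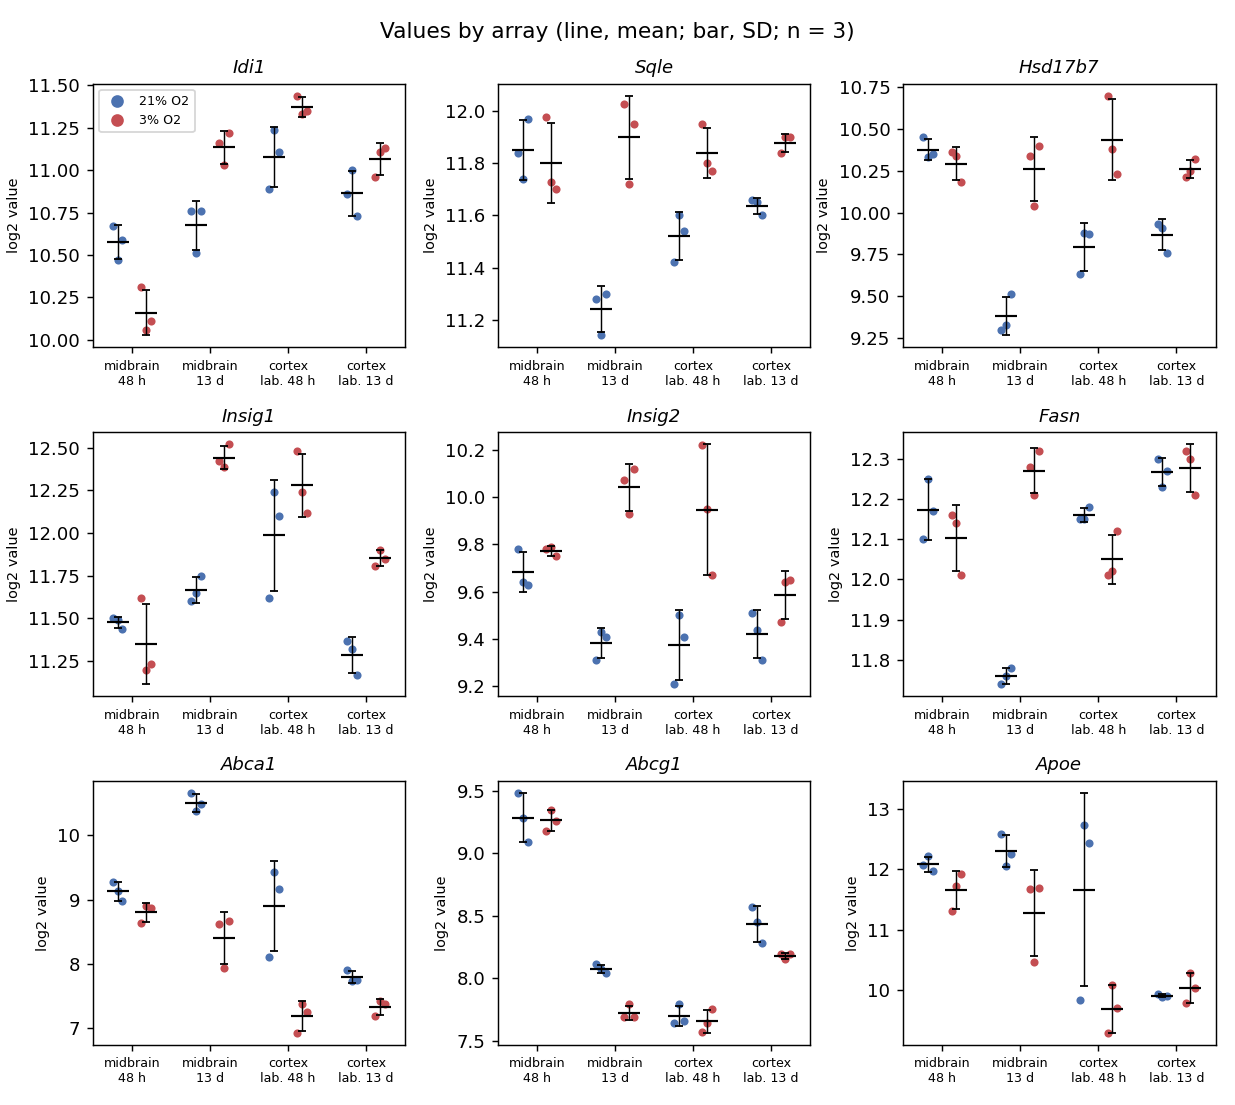
Log2 value of 9 member genes on each array, by region and labelled culture time, at 21% O2 (blue) and 3% O2 (red); points are single arrays, the line is the mean and the bar the SD of 3 arrays, and each panel has its own axis. In midbrain at 13 d the colours are separate in all 9 panels. These 9 genes are a selection from the 33 measured, so this count does not describe the pathway. The share of all probe sets separated in this way was not counted, and 23.9% of them passed limma's test in that comparison. In cortex labelled 48 h a 21% O2 array lies far below its group for Apoe and Abca1.

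In midbrain cells at 48 h, 1 of 33 members passed, while 1.19% of all probe sets did. This was Idi1, which read 10.31, 10.06 and 10.11 at 3% O2 against 10.67, 10.47 and 10.59 at 21% O2. The groups did not overlap, and Idi1 fell by 0.42 ± 0.10 (adjusted p = 0.0377), with -0.42 from the second probe set as well. The Idi1 call was lost on leaving out replicate 2 or 3 at 3% O2 or replicate 1 or 3 at 21% O2 (adjusted p from 0.0958 to 0.153), and with the 6 compared arrays fitted alone (adjusted p = 0.194). At an unadjusted p under 0.05, 7 members differed. Of the 17 synthesis enzymes, 14 had a negative difference, with a median of -0.08.

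Genes that rose most at 13 d had differences near 0 at 48 h, none of which passed. Sqle differed by -0.05 ± 0.08, Hsd17b7 by -0.08 ± 0.11, Insig1 by -0.12 ± 0.13 and Fasn by -0.07 ± 0.05. Abca1 read 8.63, 8.9 and 8.87 at 3% O2 and 9.27, 9.14 and 8.97 at 21% O2; its groups did not overlap, but the difference of -0.33 ± 0.24 did not pass (adjusted p = 0.56). Apoe differed by -0.43 ± 0.49 and Abcg1 by -0.02 ± 0.08, and neither passed. The mean of 10 microglia markers was 7.84 ± 0.28 at 3% O2 and 8.03 ± 0.07 at 21% O2, and its part in these values was not tested.

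In cortex labelled 48 h, 3 members rose and 2 fell, with 12.3% of all probe sets called. Hsd17b7 read 10.7, 10.38 and 10.23 at 3% O2 against 9.63, 9.88 and 9.87, without overlap, and rose by 0.65 ± 0.11 (adjusted p = 0.000443). Insig2 read 10.22, 9.95 and 9.67 against 9.21, 9.5 and 9.41, also without overlap, and rose by 0.57 ± 0.10 (adjusted p = 0.000821). Sqle rose by 0.32 ± 0.08 (adjusted p = 0.0147), a call lost without replicate 1 at 3% O2. Abca1 and Apoe differed by more, while Abcg1 (-0.04), Mylip (0.10) and Lpcat3 (0.15) did not pass. Abca1 read 6.93, 7.38 and 7.26 against 8.11, 9.43 and 9.17 and fell by 1.72 ± 0.24 (3.29-fold, adjusted p = 7.48e-05). Apoe read 9.29, 10.08 and 9.7 against 9.83, 12.73 and 12.44, so that replicate 1 at 21% O2 lay within the 3% O2 range. Its fall of 1.97 ± 0.49 (adjusted p = 0.0108) did not pass without replicate 1 at 3% O2 or without replicate 2 or 3 at 21% O2. With these 6 arrays fitted alone none of the 5 calls held, the adjusted p running from 0.0786 for Abca1 to 0.266 for Apoe.

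That replicate 1 at 21% O2 touched most members here. Its mean over the synthesis enzymes was 10.6, against 11.17 and 11.04 in the other 21% O2 arrays and 11.23, 11.15 and 11.1 at 3% O2. Its mean over the LXR targets was 8.76, against 9.74 and 9.54 at 21% O2 and 8.54, 8.75 and 8.66 at 3% O2. With all arrays the synthesis mean was 0.22 higher and the LXR target mean differed by -0.70 at 3% O2. The median over the 5 LXR targets was -0.04, with Abcg1, Mylip and Lpcat3 near 0 as given above. Without that array the changes in the synthesis mean and the LXR target mean became 0.05 and -0.99, and without both number 1 arrays 0.02 and -0.94. Without the one array Abca1 fell by 2.12 and Apoe by 2.89, Hsd17b7 rose by 0.56, Insig2 by 0.49 and Sqle by 0.27 (adjusted p = 0.0466), and Hmgcs1, at -0.04 with all arrays, fell by 0.28 (adjusted p = 0.0102). Without both number 1 arrays Sqle no longer passed (adjusted p = 0.171). The astrocyte marker mean in this group was 10.12 ± 0.75 at 21% O2 against 9.75 ± 0.10 at 3% O2 (1 of 10 markers fell). The oligodendrocyte mean was 10.20 ± 0.85 against 9.93 ± 0.40 (of 11, 1 rose and 1 fell). The neuron mean was 9.61 ± 0.14 against 9.25 ± 0.20 (of 10, 1 rose and 6 fell). The part of these cell types in the Apoe and Abca1 values was not tested.

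In cortex labelled 13 d, 1 of 33 members passed, beside 0.607% of all probe sets. Insig1 read 11.81, 11.9 and 11.85 at 3% O2 against 11.37, 11.32 and 11.17 at 21% O2. The groups were clearly separate, with a rise of 0.56 ± 0.13 (1.48-fold, adjusted p = 0.0444), but the call sat near the threshold and was lost on leaving out any 1 of the 6 arrays (adjusted p = 0.12 with the replicate block). All 17 synthesis enzymes had a positive difference, with a median of 0.28, and 0 of them passed; at an unadjusted p under 0.05, 13 were higher and 0 lower in limma's test. The largest were Tm7sf2, a sterol reductase, which read 9.59, 9.7 and 9.72 against 9.17, 9.03 and 8.98 (0.61 ± 0.19, adjusted p = 0.263), and Mvd, which ends the mevalonate branch (0.56 ± 0.18, adjusted p = 0.323). For Tm7sf2 no array of one group reached the other. Abca1 read 7.19, 7.43 and 7.37 against 7.9, 7.74 and 7.75, without overlap, and differed by -0.47 ± 0.24 (adjusted p = 0.723). Apoe differed by 0.13 ± 0.49, with the SE pooled over all 8 groups. The count of 1 member became 10 with the 6 compared arrays fitted alone and 14 with array weights, and was 0 with the replicate block. The neuron marker mean was 11.65 ± 0.04 at 3% O2 and 11.68 ± 0.04 at 21% O2, and 0 of 10 neuron markers and 0 of 10 astrocyte markers passed limma's test (0 and 1 at an unadjusted p under 0.05).

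The difference between oxygen responses was tested as a contrast of its own. In midbrain, 12 members responded differently at 13 d and at 48 h, 11 upward and 1 downward, where 15.1% of all probe sets passed. The contrast was 0.96 ± 0.15 for Hsd17b7 (adjusted p = 0.000232), 0.88 ± 0.14 for Idi1 (adjusted p = 0.000183), 0.71 ± 0.12 for Sqle (adjusted p = 0.000363), 0.90 ± 0.18 for Insig1 (adjusted p = 0.00169) and 0.58 ± 0.07 for Fasn (adjusted p = 1.96e-05). Abca1 went the other way, at -1.77 ± 0.34 (adjusted p = 0.00121). Idi1 passed in opposite directions at the 2 times, lower at 48 h and higher at 13 d. Stard4, Cyp51, Pmvk, Fdps, Insig2 and Srebf2 passed too. With the replicate block the calls of Pmvk and Srebf2 were lost (adjusted p = 0.0866 and 0.068), and Mylip passed (0.33, adjusted p = 0.0483). Array run and culture time cannot be told apart in this contrast.

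**Figure D3:**
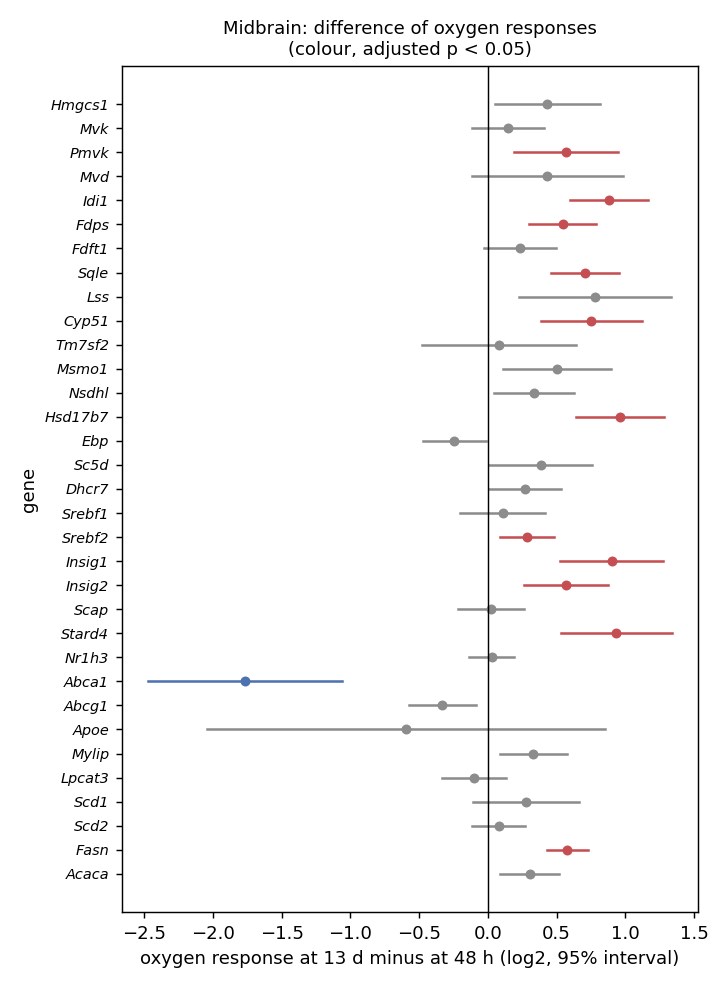
Oxygen response at 13 d minus that at 48 h in midbrain cells for the 33 measured genes, in log2 units, with 95% intervals from the fit over 24 arrays; coloured genes passed at an adjusted p under 0.05. Of these, 11 lie to the right of 0 and Abca1 lies to the left, at -1.77.

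In cortex, 1 member differed between the labelled times, with 4.13% of all probe sets called. Abca1 had a contrast of 1.25 ± 0.34 (adjusted p = 0.0412), its difference being -1.72 at the labelled 48 h and -0.47 at the labelled 13 d. Its mean at 21% O2 was 8.91 at the labelled 48 h and 7.8 at the labelled 13 d. At 3% O2 it was 7.19 and 7.33, below the lowest array median of 7.35. Whether a low signal limited the smaller difference was not tested. That Abca1 call was lost on leaving out any 1 of 10 of the 12 cortex arrays (adjusted p from 0.0521 to 0.124), and with the cortex arrays fitted alone (adjusted p = 0.144). Leaving out 1 array moved the count between 0 and 10 members, the 10 coming without replicate 1 of cortex labelled 48 h at 21% O2. Between regions at the labelled 48 h, 4 members differed and 5.88% of all probe sets passed. Midbrain minus cortex was -0.71 for Idi1, -0.73 for Hsd17b7, -0.47 for Fdps and 1.39 for Abca1. Of the 12 arrays left out in turn, 2 ended the Fdps call, both replicates 3 of midbrain at 48 h, and 1 the Abca1 call, replicate 3 of cortex labelled 48 h at 21% O2; with those 12 arrays fitted alone Idi1 alone passed. At the labelled 13 d, 5 members differed and 13.5% of all probe sets passed: Fasn by 0.50, Sqle by 0.42, Insig2 by 0.49, Hsd17b7 by 0.49 and Abca1 by -1.62. The Abca1 mean at 21% O2 was 10.5 in midbrain and 7.8 in cortex at that labelled time. Here Hsd17b7 was lost on leaving out any 1 of 8 of the 12 arrays (adjusted p from 0.074 to 0.109), Insig2 any 1 of 6 (0.0606 to 0.084) and Sqle any 1 of 4 (0.0542 to 0.0725), while Fasn and Abca1 passed each time. With the replicate block Hsd17b7 and Insig2 did not pass (adjusted p = 0.0609 and 0.0686). In the contrast at the labelled 13 d, region and array run cannot be told apart. Regions were matched by labelled time, although all 12 cortex arrays correlated better with midbrain arrays of the other labelled time. Hsd17b7, Insig2, Sqle and Abca1 passed both in midbrain at 13 d and in cortex labelled 48 h, each in the same direction. The share of all probe sets that passed in both was not counted. Singly, 23.9% passed in midbrain at 13 d and 12.3% in cortex labelled 48 h. With the cortex labelled 48 h arrays fitted alone, 0 members passed there. Fasn, which differed by 0.51 in midbrain at 13 d, read 12.01, 12.02 and 12.12 at 3% O2 against 12.15, 12.15 and 12.18 in cortex labelled 48 h, a difference of -0.11 that did not pass.

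The 2 arms were also set side by side on each array, as the mean of the 17 synthesis enzymes minus the mean of the 5 LXR targets. Since this subtracts levels of different genes, only its change with oxygen is described, with no test. In midbrain at 13 d it was 1.91 ± 0.08 (SD, n = 3) at 3% O2 and 0.88 ± 0.05 at 21% O2. In cortex labelled 48 h it was 2.51 ± 0.16 and 1.59 ± 0.22, in cortex labelled 13 d 2.21 ± 0.04 and 1.76 ± 0.05, and in midbrain at 48 h 0.96 ± 0.20 and 0.88 ± 0.14. The groups did not overlap in the first 3 of these and overlapped in midbrain at 48 h. The arms contributed unequally. In midbrain at 13 d the synthesis mean was 0.36 higher and the LXR target mean differed by -0.66, while in cortex labelled 13 d the synthesis mean was 0.32 higher and the LXR target mean differed by -0.13. The midbrain 13 d mean rests largely on Abca1. The median over the 5 LXR targets there was -0.35, with 3 negative and 2 positive.

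**Figure D4:**
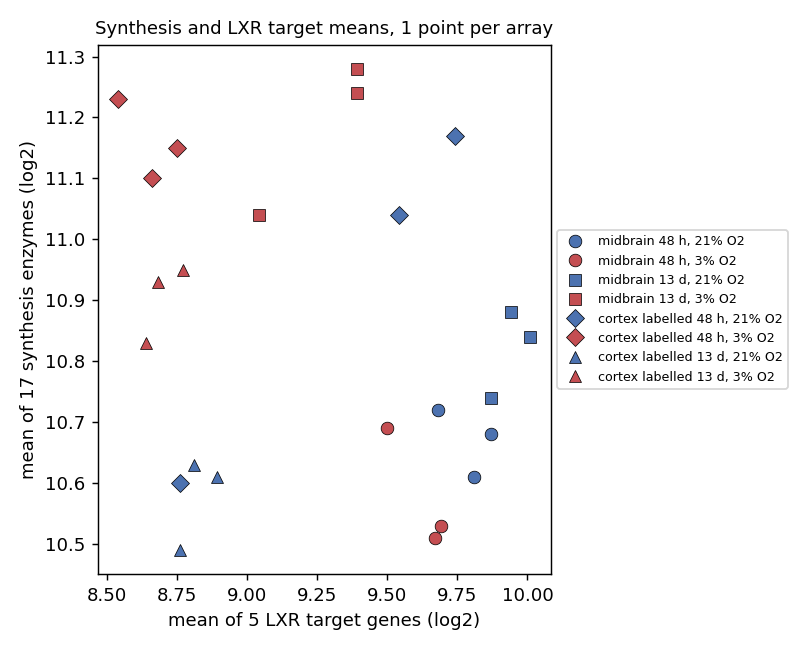
Mean log2 value of the 17 synthesis enzymes (vertical) against that of the 5 LXR targets (horizontal), 1 point per array, with shape for region and labelled time and colour for oxygen level. Midbrain 13 d arrays at 3% O2 lie above and to the left of those at 21% O2, and one cortex labelled 48 h array at 21% O2 lies at 8.76 and 10.6, apart from the other two.

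At 21% O2 the members also differed between regions and labelled times. Between midbrain and cortex labelled 48 h, 6 members were higher in midbrain and 15 lower, with 54.8% of all probe sets called. Srebf1 was lower in midbrain by 3.21-fold (-1.68 ± 0.10), Scd1 by 2.98-fold (-1.58 ± 0.13) and Tm7sf2 by 2.43-fold, while Abcg1 was 3-fold higher (1.59 ± 0.08) and Mylip 1.97-fold higher. Between cortex labelled 13 d and cortex labelled 48 h, 3 members were higher and 17 lower at the labelled 13 d, with 37.2% of all probe sets called. Apoe differed by -1.76 ± 0.49, Tm7sf2 by -1.32 ± 0.19, Abca1 by -1.11 ± 0.24 and Scd1 by -0.89 ± 0.13, and Abcg1 by 0.74 ± 0.08 the other way. Replicate 1 of cortex labelled 48 h at 21% O2 enters both contrasts; without it Apoe differed by -2.67, Tm7sf2 by -1.66 and Abca1 by -1.50 between the cortex groups, Hmgcs1, Idi1, Msmo1 and Sc5d also passed as lower, and Nr1h3 did not pass (adjusted p = 0.207). Between midbrain and cortex labelled 48 h, Insig2 then did not pass (adjusted p = 0.0889), while Hmgcs1 passed as lower in midbrain (-0.286, adjusted p = 0.00242). Cell type markers differed widely too. At 21% O2 the astrocyte mean was 8.33 ± 0.17 in midbrain at 48 h, 10.12 ± 0.75 in cortex labelled 48 h and 8.93 ± 0.05 in cortex labelled 13 d, and the oligodendrocyte mean 7.98 ± 0.13, 10.20 ± 0.85 and 8.10 ± 0.03. The cell cycle mean was 9.79 ± 0.26, 11.34 ± 0.18 and 11.17 ± 0.04, and the microglia mean 8.03 ± 0.07, 6.55 ± 0.07 and 6.86 ± 0.01. The part of these markers, and of the neuron markers given above, in the member values was not tested. Over the 8 groups, Abca1 spanned 3.31 log2 units, from cortex labelled 48 h at 3% O2 to midbrain 13 d at 21% O2, the widest of the members. Apoe spanned 2.61 and Scd1 1.89, while Fdft1, the squalene synthase, and Scap spanned 0.28 each.

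The counts of other pathway genes stand beside the shares of all probe sets called, 23.9% in midbrain at 13 d, 12.3% in cortex labelled 48 h, 1.19% in midbrain at 48 h and 0.607% in cortex labelled 13 d. Of 8 further sterol genes, 3 rose in midbrain at 13 d, led by Tmem97, a sterol-binding membrane protein (0.91 ± 0.09, adjusted p = 5.71e-07), and Aacs, which activates acetoacetate (0.42 ± 0.09, adjusted p = 0.00149). Tmem97 rose in midbrain at 48 h as well (0.39 ± 0.09, adjusted p = 0.0486), and 0 of the 8 passed limma's test in either cortex comparison (3 in each at an unadjusted p under 0.05), where Tmem97 differed by 0.26 and 0.27. Of 9 further fatty acid genes, 4 rose and 1 fell in midbrain at 13 d, and 3 rose and 1 fell in cortex labelled 48 h. Lpin1, a phosphatidate phosphatase, rose in both, by 0.99 ± 0.09 and 0.75 ± 0.09, and Me1, which supplies NADPH, by 0.81 ± 0.18 and 0.62 ± 0.18. Of 15 further genes of LXR signalling and lipoprotein transport, 2 rose and 3 fell in midbrain at 13 d. Scarb1, a lipoprotein receptor, and Vldlr, a receptor for ApoE particles and for reelin, rose there by 0.82 ± 0.09 and 1.33 ± 0.17. Both also rose in cortex labelled 48 h (0.72 and 0.82) and in cortex labelled 13 d (0.50 and 0.75). The 3 that fell in midbrain at 13 d encode the retinoid X receptors, partners of LXR: Rxrg by 0.86 ± 0.15, Rxra by 0.65 ± 0.13 and Rxrb by 0.15 ± 0.05.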

How the data were processed

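Total RNA of mouse primary cultures was hybridised to 24 whole-transcript arrays with 1 biotin label. The labels do not say how many separate cultures gave this RNA. The authors deposited 1 table of normalized log2 values, with 28856 probe sets and a range from 4.65 to 14.49; the sources used here do not give the normalization method, and precision is limited by having 3 arrays a group. Probe sets were named from the platform annotation: 21789 carry 1 gene symbol, 1621 several and 5446 none. Groups came from the sample titles. limma 3.58.1 in R 4.3.3 fitted 8 group means over 24 arrays (lmFit, eBayes, 16 residual degrees of freedom) to the 23410 probe sets with a symbol, with Benjamini-Hochberg adjustment, for 10 contrasts. All groups share a single estimate of the spread for each probe set. The procedure was tested on simulated data with independent noise and the same spread in every group. That test does not cover unequal spread between groups or paired arrays. The members and gene lists were chosen with earlier results of these data known. In each oxygen comparison up to 10 members with the smallest p past the threshold were named, with a fixed panel of 15 genes, up to 6 in differences of responses, and 2 genes of each further list; others named for a count or a range were chosen after their values were seen. Same-numbered 3% and 21% O2 arrays deviated together in midbrain (correlations 0.121 to 0.421), so the number was taken to pair them there, from the data and not the labels. The main fit did not use this pairing. Midbrain calls that changed with the replicate block are given with the results above. The correlations were 0.285, 0.417 and -0.044 in cortex labelled 48 h and -0.014, 0.229 and -0.367 in cortex labelled 13 d. Not all were above the limit of 0.1 in either cortex group, so neither was taken as paired. Alternatives were brighter probe sets only, quantile normalization, median centring, trended and robust moderation, array weights, a fit of only the arrays compared, the replicate number as a block, the second probe set, and leaving out each array.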

Additional observations from a re-analysis of the deposited data

Results flagged for a closer look

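Each result here is a difference between oxygen responses that passed its own contrast in limma's test. In midbrain, the response at 13 d minus that at 48 h was 0.58 for Fasn, 0.88 for Idi1, 0.96 for Hsd17b7, 0.71 for Sqle, 0.9 for Insig1 and -1.77 for Abca1. In cortex, the response at the labelled 13 d minus that at the labelled 48 h was 1.25 for Abca1. At the labelled 48 h, the midbrain response minus the cortex response was -0.71 for Idi1, -0.73 for Hsd17b7, -0.47 for Fdps and 1.39 for Abca1. At the labelled 13 d it was 0.5 for Fasn, 0.42 for Sqle, 0.49 for Insig2, 0.49 for Hsd17b7 and -1.62 for Abca1. Region and array run cannot be told apart at the labelled 13 d, nor culture time and run in midbrain. Regions were matched by labelled time only. The cortex value for Abca1 did not pass without any 1 of 10 of the 12 cortex arrays, nor with those arrays fitted alone (adjusted p = 0.144). Both cortex means of Abca1 at 3% O2, 7.19 and 7.33, lay below the lowest array median of 7.35. At the labelled 13 d, Hsd17b7 was lost without any 1 of 8 arrays, Insig2 of 6 and Sqle of 4; at the labelled 48 h, Fdps was lost without any 1 of 2 and Abca1 without 1. With the replicate block, Insig2 and Hsd17b7 no longer passed at the labelled 13 d (adjusted p = 0.0686 and 0.0609). Groups of 3 arrays are too small for a test of single outlying arrays.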

How the results depend on the processing

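No result that passed changed direction under the alternatives run. Of 101 results each, 98 kept their direction and their side of the threshold with brighter probe sets, 98 with median centring, 99 with trended and robust moderation, 83 with the compared arrays alone and 79 with array weights. The midbrain 13 d count of 19 members ran from 14 to 20 on leaving out 1 array and was 28 with array weights, and the midbrain time difference of 12 was 18 with the compared arrays alone. Keeping brighter probe sets gave 9 members in cortex labelled 48 h, trended and robust moderation 8, and quantile normalization 2 in cortex labelled 13 d. With the compared arrays alone, the counts were 0 in midbrain at 48 h (9 at an unadjusted p under 0.05), 0 in cortex labelled 48 h (7 unadjusted), 10 in cortex labelled 13 d, 0 for the cortex time difference (3 unadjusted), 1 for the region difference at 48 h and 8 at 13 d. With limma's array weights they were 0 in midbrain at 48 h (10 unadjusted), 9 in cortex labelled 48 h, 14 in cortex labelled 13 d, 21 for the midbrain time difference, 11 for the cortex time difference, 7 for the region difference at 48 h and 12 at 13 d. The cause of these changes was not tested.

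Leaving out 1 array gave 0 to 1 members in midbrain at 48 h (5 to 6 unadjusted where 0), 3 to 11 in cortex labelled 48 h, 0 to 0 in cortex labelled 13 d (12 to 18 unadjusted), 0 to 10 for the cortex time difference (3 to 5 unadjusted where 0), 3 to 7 for the region difference at 48 h and 2 to 6 at 13 d. The 11 in cortex labelled 48 h came without replicate 2 at 21% O2, and the 3 without replicate 1 at 3% O2. Without both cortex labelled 48 h number 1 arrays, a choice made after seeing the data, the cortex time difference held 9 members.

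With the replicate number as a block, 20 members rose and 3 fell in midbrain at 13 d, 19 of them called without it; the count was 0 in cortex labelled 13 d (17 unadjusted) and 2 for the cortex time difference. Cortex numbers were not taken to pair. Calls lost or gained with the block in cortex, or in contrasts that include cortex, are given as values only and are not read for weaker effects.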
